A study of Drosophila melanogaster with 3 samples.

Results

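The genes described here are 8 core components of the Drosophila microRNA and small interfering RNA (siRNA) pathways, taken from a written list out of 13945 annotated protein-coding genes: AGO1, Dcr-1, AGO2, Dcr-2, drosha, pasha, loqs and r2d2. The regions enriched for YL-1, which belongs to the Domino/Tip60 chromatin complexes, were set against the start sites of these genes. They came from chromatin immunoprecipitation and sequencing (ChIP-seq). The material was 0 to 24 h whole embryos of mixed sex from a transgenic line with a stable YL-1 fusion carrying GFP at its C terminus, and the antibody was against GFP. All 3 biological replicates belong to this single group, and control libraries were not analysed here. The labels do not say whether the line still makes untagged YL-1, nor whether the fusion is driven by the gene's own promoter. The lists hold no expression values, so the cell types of the embryos were not checked. The measurements are lists of enriched regions with a summit and a signal value that the authors set. The scale of the signal differs between libraries, so ranks and ratios were taken within a library. Depth is unknown.

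The 2 pathways cut double-stranded RNA into small guides. In the microRNA branch, the nuclease Drosha and its partner Pasha release hairpins in the nucleus, Dcr-1 with Loqs trims them in the cytoplasm, and most products load into AGO1. In the siRNA branch, Dcr-2 processes long double-stranded RNA, R2D2 helps to load the product, and AGO2 cleaves matching targets, including viral and transposon RNA. Loqs serves both branches through different protein isoforms.

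Start-site sequences of 4 members are shown first. They carry letters of core promoter motifs close to the start site, or, for loqs, the only DRE match among the members. They are RefSeq sequence of the Release 6 (dm6) assembly, 5′ to 3′ on the strand of the gene. The Dcr-1 sequence is chr3R:22741062-22741171 (minus strand), that of AGO2 is chr3L:15554033-15554142 (plus strand), and that of pasha is chr3R:31617897-31618006 (plus strand), each with the start site at base 81. The loqs sequence is chr2L:13382402-13382681 (plus strand), with the start site at base 251. Capitals mark the core of Ohler motif 1 in Dcr-1 and pasha, and the DNA replication-related element (DRE) in loqs. In AGO2 they mark 2 matches to CANCNCTA, the letters searched for Ohler motif 7, where N is any base.
Dcr-1: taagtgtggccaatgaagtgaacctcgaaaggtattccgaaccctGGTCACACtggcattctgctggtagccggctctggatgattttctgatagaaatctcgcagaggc
AGO2: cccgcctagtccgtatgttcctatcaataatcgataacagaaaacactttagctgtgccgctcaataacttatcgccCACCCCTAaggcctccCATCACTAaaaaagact
pasha: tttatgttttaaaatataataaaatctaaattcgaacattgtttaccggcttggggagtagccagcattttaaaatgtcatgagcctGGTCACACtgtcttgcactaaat
loqs: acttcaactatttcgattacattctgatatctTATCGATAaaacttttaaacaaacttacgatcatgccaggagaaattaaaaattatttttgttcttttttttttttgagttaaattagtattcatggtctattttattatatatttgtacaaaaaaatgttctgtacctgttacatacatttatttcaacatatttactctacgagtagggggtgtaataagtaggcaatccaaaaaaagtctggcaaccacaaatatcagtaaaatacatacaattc

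YL-1 stood at the promoters of all 8 genes. The authors kept 5986 peaks by their irreproducible discovery rate (IDR), a measure of agreement between replicates. In this IDR list each of the 8 had a summit within 250 bp of an annotated transcription start site (TSS). Genes with such a summit are called bound, and 33.4% of all protein-coding genes were called by this rule. The share of bound members was 8 of 8 in replicate 1, 7 of 8 in replicate 2 and 8 of 8 in replicate 3 when each replicate was cut to its 5986 strongest regions, the length of the IDR list. The background shares in those lists were 32.8%, 31.3% and 32.3%. The missing gene in replicate 2 was Dcr-1. The calls from the IDR list and the 3 replicates were all positive for 7 of 8 members, against 23.8% of all genes. The list of members was not tested, because genes are not replicates. It was also chosen with earlier results of these data known, so its share is a description only. In whole embryos, fewer cells with YL-1 at a gene and less YL-1 per cell cannot be told apart.

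The count of bound members was lower at stricter settings. Among the 3000 strongest regions of replicates 1, 2 and 3 there were 5, 4 and 7 members, against 20.7%, 20.1% and 20.6% of all genes. Among the 10000 strongest there were 8 in each replicate, against 40.4%, 39% and 39.7%. IDR peaks above the median signal reached 5 of 8 members and 20.9% of all genes, without Dcr-1, Dcr-2 and loqs. Summits within 100 bp reached 7 of 8 and 23.6%, without AGO2, and windows of 500 and 1000 bp reached 8 of 8, against 37.6% and 40.8%. Where each summit was given only to the nearest start of any protein-coding gene, 6 of 8 were bound, against 28.2%, because the summits of Dcr-1 and drosha lay nearer to a neighbour. The strongest r2d2 summit also lay nearer to a neighbour, 34 bp from Herp against 123 bp from r2d2. There r2d2 stayed bound through its weaker region. Regions shared by the 3 replicates reached 7 of 8 (25.5% of all genes), without Dcr-1. Regions shared by 2 replicates reached 7 without replicate 1 (27.6%), 8 without replicate 2 (28.3%) and 7 without replicate 3 (27.7%), again lacking only Dcr-1.

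Signal differed among the 8 promoters by several fold. In the IDR list the median of the members was 261, and the median of all 4655 bound genes, taken at the strongest summit of each, was 252. Above that median were AGO1, AGO2, r2d2 and drosha, and below it were pasha, Dcr-1, Dcr-2 and loqs. The strongest member, AGO1, had more signal than 99.1% of bound genes, and the weakest in this list, loqs, had more than 21.8%. To set replicates side by side, the signal was divided by the median of the 5986 strongest regions of the same library. On this scale the order of the means was AGO1, AGO2, r2d2, drosha, Dcr-2, pasha, Dcr-1 and loqs. The log2 step between neighbours was 0.78 ± 0.25 for AGO1 over AGO2, 0.29 ± 0.09 for AGO2 over r2d2, 0.25 ± 0.24 for r2d2 over drosha and 0.48 ± 0.31 for drosha over Dcr-2 (mean and SD of 3 replicates). These 4 steps exceeded their SD, although r2d2 and drosha were in the other order in replicate 2. The genes were sorted by the means of the same 3 replicates. The signs of the steps largely follow from that sorting, so the steps are no test of the order. From Dcr-2 to loqs no step between neighbours exceeded its SD. Beyond neighbours, pasha stood above loqs in 3 of 3 replicates by 0.18 ± 0.12 on the log2 scale, and Dcr-2 above loqs in 3 of 3 by 0.18 ± 0.20, which is within its SD.

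**Figure D1:**
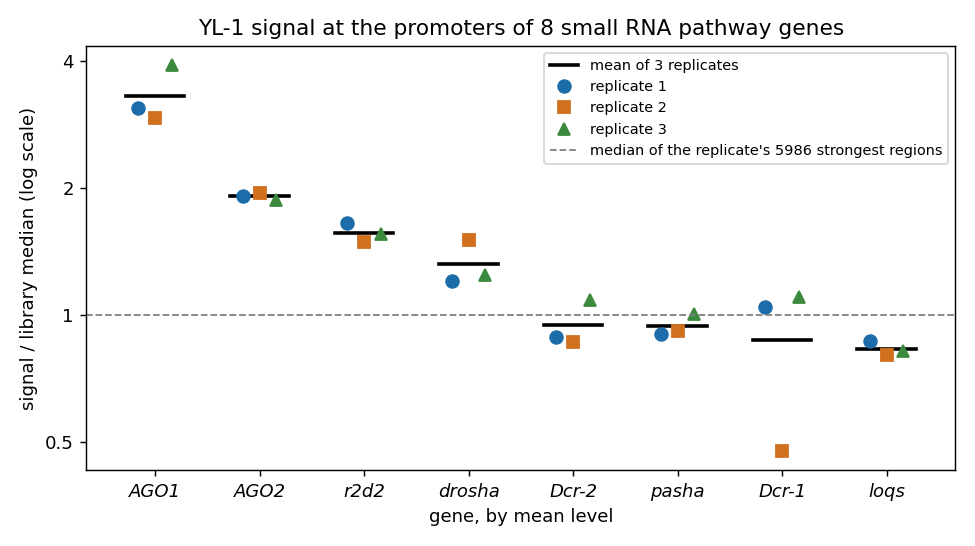
YL-1 signal at the strongest promoter region of each gene, divided by the median of the 5986 strongest regions of the same replicate (log scale), for 3 replicates (symbols) with their mean (bar). AGO1 lies between 2.94 and 3.92, AGO2 between 1.87 and 1.94, and Dcr-1 at 0.476 in replicate 2.

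The AGO1 gene, which encodes the main microRNA-carrying Argonaute, had the strongest region of the 8. The gene (FBgn0262739) lies on 2R from 13943387 to 13958089 on the minus strand and has 3 annotated start sites, a most upstream one, a middle one 2409 bp downstream and an internal one 4064 bp downstream. The strongest region lay at the internal start, with a signal of 796 (rank 43 of 5986) and a summit at 13954081, 56 bp upstream of that start. Its signal was 202, 183 and 405 in replicates 1, 2 and 3, at ranks 82, 86 and 35 of 30000. That is 3.32 ± 0.524 times the library median (SD, n = 3). The same summit lay 114 bp from the start site of mRpL53 and CG33155 on the opposite strand, so it cannot be given to AGO1 alone. The gene mRpL53 encodes a mitochondrial ribosomal protein.

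The most upstream AGO1 start, from which 2 of 4 transcripts begin, had a region of its own. Its IDR signal was 240.5 (rank 2481), with the summit 64 bp upstream. The replicates gave 83.3, 71.0 and 100.4, at 1.28, 1.14 and 0.970 times the library median. In all 3 replicates this was below the internal start. The log2 ratio of the internal over the most upstream start was 1.28, 1.37 and 2.01 in replicates 1, 2 and 3, or 1.55 ± 0.40 (SD, n = 3). It was not tested, since the internal start was picked as the strongest. At the middle start no IDR summit lay within 250 bp. Only weak regions were listed there, at rank 20691 in the pooled list and 24196 in replicate 2, and none within the window in replicates 1 and 3. A further IDR region overlapped the strongest one, with a signal of 179 (rank 4164) and its summit at 13954280.

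**Figure D2:**
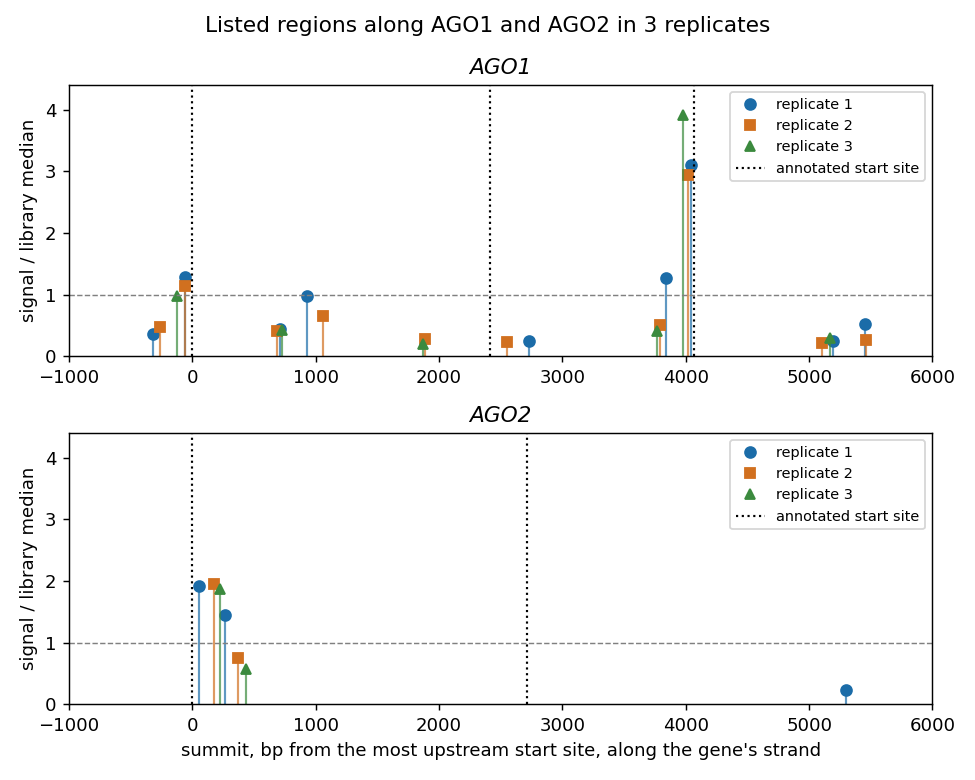
Summits of regions listed around the start sites of AGO1 and AGO2 by distance from the most upstream start site, with the height showing signal over the library median in 3 replicates; dotted lines are annotated start sites. In AGO1 the strongest regions lie at the start 4064 bp downstream, and in AGO2 they lie just downstream of the first start.

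The AGO2 gene, which encodes the siRNA-carrying slicer, had the second strongest region. It lies on 3L from 15554113 to 15561042 on the plus strand (FBgn0087035) and has 2 start sites, 2710 bp apart. The IDR region at the first start had a signal of 422 (rank 508) and a summit at 15554215, 102 bp downstream. Replicates 1, 2 and 3 gave signals of 125, 121 and 194, at ranks 516, 460 and 542. Relative to the library median these were 1.92, 1.94 and 1.87, or 1.91 ± 0.0364 (SD, n = 3). The replicates lay close together in level but not in position, with summits 52, 171 and 227 bp downstream of the start. With a window of 100 bp AGO2 was the member that was no longer bound. A second IDR region followed 311 bp downstream of the start, with a signal of 289 (rank 1592). No summit lay within 250 bp of the second start in any of the 5 lists. No other protein-coding gene had a start site in the window of the strongest AGO2 summit.

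The Dicer genes had regions of middle rank. Dcr-1, the microRNA enzyme, lies on 3R from 22734007 to 22741091 on the minus strand (FBgn0039016). Its IDR signal was 217 (rank 3027), with the summit at 22741130, 39 bp upstream of its single start. In replicates 1, 2 and 3 the signal was 68.0, 29.7 and 114, at ranks 2772, 9147 and 2457. Replicate 2 was low: its region stood at 0.476 times the library median, against 1.05 in replicate 1 and 1.10 in replicate 3. The mean was 0.874 ± 0.346 (SD, n = 3), the widest spread for its level among the 8. The authors' −log10 q-value of that region was 2.14, where the list reaches 4.09. The Dcr-1 summit also lay 20 bp from the start of CG6985 on the opposite strand, nearer than to its own.

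Dcr-2, the siRNA enzyme, lies on 2R from 17574979 to 17581525 on the minus strand (FBgn0034246). Its IDR signal was 212 (rank 3172), with the summit at 17581559, 34 bp upstream of its single start. Replicates 1, 2 and 3 gave 57.7, 53.9 and 113, at ranks 3750, 3890 and 2540, which is 0.946 ± 0.123 times the library median (SD, n = 3). All 3 replicates placed Dcr-2 within their strongest 5986 regions. No other protein-coding gene started within 250 bp of its summit.

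The contrast between the branches was taken as the log2 signal ratio of microRNA over siRNA genes within each replicate. The strongest IDR summits of AGO1 and Dcr-1 each lay within 250 bp of an opposite-strand start as well, and those of AGO2 and Dcr-2 did not. The ratios therefore also set shared promoters against unshared ones, and the part of this in them was not tested. For AGO1 over AGO2 it was 0.69, 0.60 and 1.06 in replicates 1, 2 and 3, a mean of 0.78 ± 0.25 (SD, n = 3), higher in 3 of 3. The exact sign-flip permutation test gave a two-sided p of 0.25, the smallest that 3 replicates allow. At the most upstream AGO1 start alone, a choice made after seeing the data, the ratio was -0.77 ± 0.18 (SD, n = 3) and negative in 3 of 3. So the direction of the Argonaute contrast depends on which AGO1 start is counted. For Dcr-1 over Dcr-2 the ratios were 0.24, -0.86 and 0.02, with a mean of -0.20 ± 0.58 (SD, n = 3; exact sign-flip permutation test, two-sided p = 1). Without replicate 2 that mean was 0.13. The mean of both pairs was 0.29 ± 0.37 (SD, n = 3), with 2 of 3 replicates positive (exact sign-flip permutation p = 0.5, two-sided), and -0.49 ± 0.32 at the most upstream AGO1 start. Over these 3 ratios the Benjamini-Hochberg adjusted values of the exact permutation p were 0.75 for the Argonautes, 1 for the Dicers and 0.75 for both pairs. The 3 replicates did not resolve a difference between the branches.

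**Figure D3:**
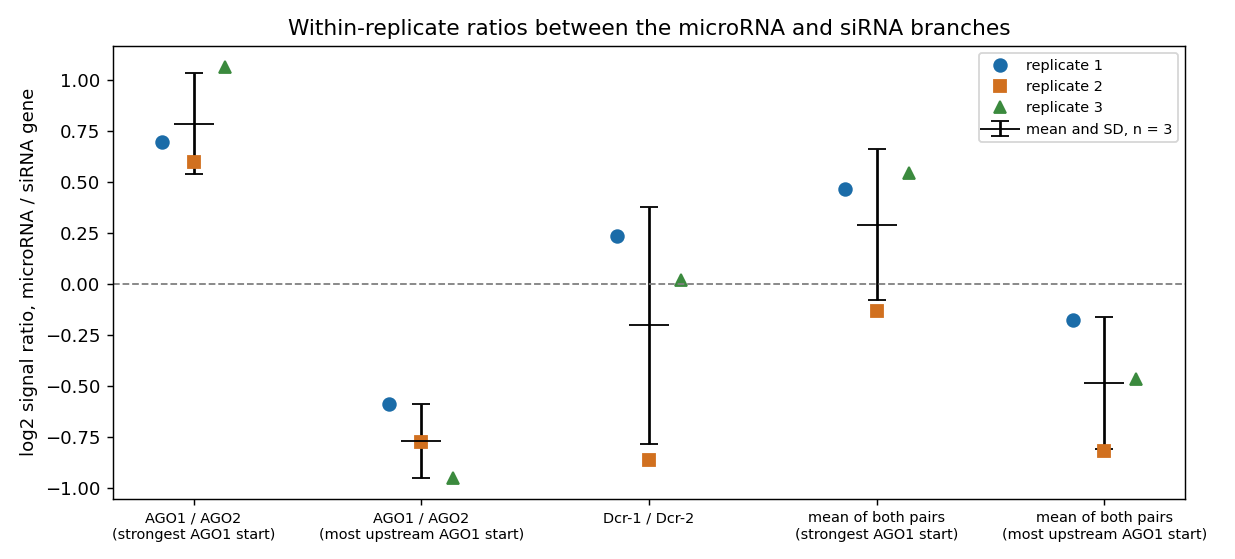
Log2 ratio of signal, microRNA gene over siRNA gene, within each of 3 replicates (symbols), with mean and SD. The AGO1 over AGO2 ratio is positive in 3 of 3 replicates at the strongest AGO1 start and negative in 3 of 3 at the most upstream one, and the Dcr-1 over Dcr-2 ratio has both signs.

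The Microprocessor genes were bound in all 3 replicates. The drosha gene encodes the nuclear nuclease and lies on 2R from 7932429 to 7936840 on the plus strand (FBgn0026722). Its IDR signal was 298 (rank 1478), 30 bp upstream of its start. Replicates 1, 2 and 3 gave 78.6, 94.1 and 129, at ranks 2052, 1091 and 1879, or 1.32 ± 0.164 times the library median (SD, n = 3). The IDR summit was 19 bp from the start of rnh1 on the opposite strand, whose start lies 49 bp from that of drosha. The pasha gene encodes the RNA-binding partner of Drosha and lies on 3R from 31617977 to 31622217 on the plus strand (FBgn0039861). Its IDR signal was 223 (rank 2884), 7 bp upstream of the first of 3 starts. Replicates 1, 2 and 3 gave 58.9, 57.2 and 104, at ranks 3626, 3497 and 2979, or 0.941 ± 0.0539 times the library median (SD, n = 3). Its other starts, 451 and 1012 bp downstream, had no IDR summit within 250 bp. In every replicate drosha stood above pasha.

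The genes of the Dicer partners, both double-stranded RNA-binding proteins, were bound in all 3 replicates as well. The loqs gene lies on 2L from 13382652 to 13385671 on the plus strand (FBgn0032515), and all 6 of its transcripts begin at 1 start, so the isoforms of both branches share the bound promoter. Its IDR signal was 183 (rank 4003), 13 bp downstream of that start. Replicates 1, 2 and 3 gave 56.5, 50.2 and 85.0, at ranks 3899, 4364 and 4186. These are close together, at 0.831 ± 0.0325 times the library median (SD, n = 3). The r2d2 gene lies on 2L from 7800147 to 7802098 on the plus strand (FBgn0031951). It has 2 annotated starts, 235 bp apart. Around the first lay 2 overlapping IDR regions, with signals of 308 (rank 1342, summit 123 bp upstream) and 194 (rank 3652, summit 81 bp downstream). The weaker summit also lay 154 bp upstream of the second start, so both starts had an IDR summit within 250 bp. In replicate 2 no region lay within 250 bp of the second start. The stronger summit lay 34 bp from the start of Herp on the opposite strand, nearer than to a start of r2d2. Its strongest region gave 107, 92.8 and 161 in replicates 1, 2 and 3, at ranks 863, 1122 and 1037, or 1.56 ± 0.0821 times the library median (SD, n = 3). The summit was 62 bp downstream of the first start in replicate 1, and 111 bp and 133 bp upstream of it in replicates 2 and 3. In all 3 replicates r2d2 stood above loqs.

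**Figure D4:**
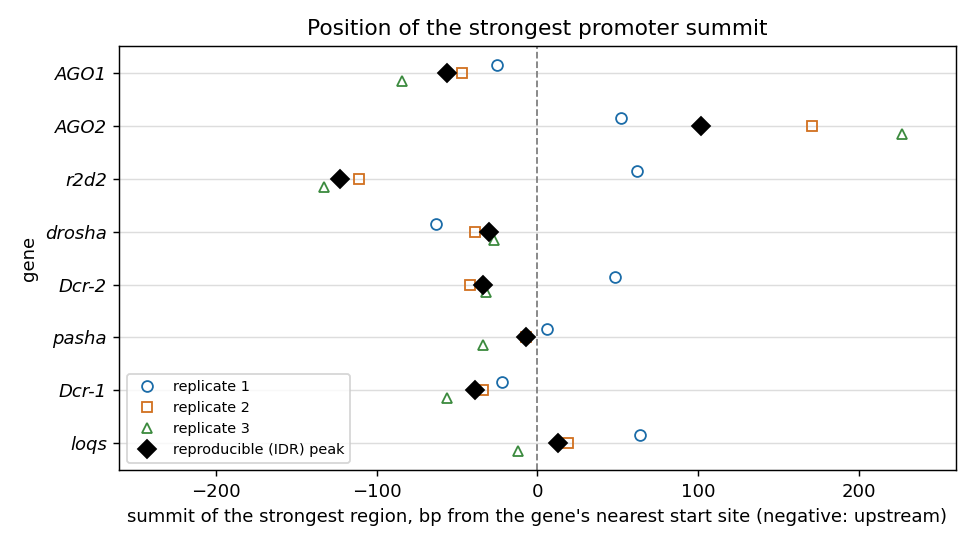
Distance of the strongest promoter summit from the nearest start site of each gene, in bp, for the IDR list (filled) and 3 replicates (open). IDR summits of 6 genes lie upstream of the start, those of AGO2 and loqs downstream, and the replicate summits of AGO2 and r2d2 are spread more widely than those of the other genes.

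Most members had their summit close to the start, and no motif searched was common to all 8. The IDR summits lay 7 to 123 bp from the start, with a median distance of 36.5 bp, against 68 bp for all bound genes. They were upstream for 6 of 8 members, and upstream or at the start for 60.9% of bound genes. A protein-coding neighbour had its start within 250 bp of the strongest summit for 4 of 8 members (AGO1, Dcr-1, drosha and r2d2), against 42.9% of bound genes. The GC content within 250 bp of the start had a median of 38.1% in the members, against 41.3% in all genes and 40.5% in bound genes. It ranged widely, with 29.9% at loqs and 50.7% at drosha.

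Motifs were sought on both strands from 250 bases before the start to 50 from it, as exact letters. For genes with several starts, the start with the strongest IDR region was used, or the most upstream start where the gene was not bound. Ohler motif 1 (core GGTCACAC), a core promoter motif of broadly expressed genes, was found in Dcr-1, Dcr-2 and pasha, and in 7.93% of all promoters and 18.3% of those of bound genes. Ohler motif 6 (core GTATNTTT) was found in Dcr-1, AGO2, drosha and r2d2, against 14.8% of all and 20.9% of bound promoters. The letters CANCNCTA, searched for Ohler motif 7 with the third base left open, were in AGO2, against 15.9% of all and 26.8% of bound promoters. The DRE (TATCGATA) was in loqs, against 9.32% of all and 18.8% of bound promoters. The Ohler motif 5 E-box (CAGCTG) was in AGO1 and r2d2, against 18.1% of all and 25.8% of bound promoters. The short BEAF-32 letters CGATA, part of the DRE, were in 5 of 8 members, against 47.3% of all and 61.8% of bound promoters. GAGAG was in AGO1 and Dcr-1 (30.1% of all and 23.7% of bound promoters), and TATAAA in Dcr-1 and AGO2 (45.5% and 44.7%). TCAGT of the initiator was in pasha, loqs and r2d2 (51.9% of all and 44.1% of bound promoters), and the Zelda letters CAGGTA in loqs (6.25% and 5.52%). With the start site as base 1, TATAAA began at -119 in Dcr-1 and at -122 and -106 in AGO2. TCAGT began at -151 in pasha and -75 in r2d2, both on the opposite strand, and at 10 in loqs. No TCAGT match spanned the start, and letters alone do not show a working element. The E-box CACGTG was in 0 of 8 members, 4.24% of all promoters and 5.56% of bound ones. Of the 2 bound AGO1 starts, the internal one held the E-box CAGCTG, 2 matches to CGATA and 1 to GAGAG, and the most upstream held 5 matches to GAGAG and none to the other 10 motifs. The second r2d2 start, which the shares above do not use, held 1 match each to CGATA, CANCNCTA and TATAAA.

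For AGO2, Dcr-1 and Dcr-2, genes with regions of their own had nearly the same levels over the 3 replicates. Likeness was the Euclidean distance of log2 signal over library median across 3 replicates, among 5756 other protein-coding genes with a region within 250 bp in every replicate. Nearest to AGO2 were Ref1, an mRNA export adaptor (distance 0.05), and CG9426 (0.07), and nearest to Dcr-2 were Trs23, a subunit of a vesicle-tethering complex (0.03), and goe (0.06). Nearest to Dcr-1 apart from its neighbour CG6985 was Ciz1 (0.11), at 0.504 times the library median in replicate 2. All these genes were picked from 5756 for the smallest distance over the 3 replicates. Their close levels, and the low replicate 2 of Ciz1, follow from that choice and are no separate result. The genes listed for AGO1, mRpL53 and CG33155, take their values from the same region, as CG6985 does with Dcr-1, so their likeness is fixed and no separate gene is given for AGO1.

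Genes that act beside the core components were mostly bound too. Of 36 genes on 3 further lists, 30 (83.3%) had an IDR summit at a start, and 83.3% ± 2.78 did so in single replicates (SD, n = 3), against 33.4% of all genes. These lists were chosen with earlier results of these data known, so their shares describe the lists and do not test them. The bound genes on the 3 lists had a median signal of 287. All 5 chaperone and co-chaperone genes linked to Argonaute loading were bound, led by Hsp83, the fly Hsp90 (signal 869, rank 23), Droj2 (435, rank 451) and Stip1 (349, rank 962). Of 13 genes for silencing and mRNA decay effectors 11 were bound, led by PAN2 (587, rank 153) and PAN3 (415, rank 535), which form a deadenylase, and tral (482, rank 293). Ge-1, a decapping scaffold, and pcm, the fly exonuclease Xrn1, were not bound in the IDR list, but each was among the 5986 strongest regions of 1 replicate (Ge-1 at rank 5830 in replicate 3, pcm at rank 3884 in replicate 1). Of 18 other small RNA factors 14 were bound, led by vig (701, rank 77), found in the RNA-induced silencing complex, Ars2 (453, rank 392), which links the cap-binding complex to microRNA processing, and the helicase gene Rm62 (427, rank 486). The nuclear export gene Ranbp21 (252, rank 2242) and gw, which encodes the AGO1 partner GW182 (158, rank 4968), were bound as well. Not bound in the IDR list were Hen1, which methylates AGO2-bound RNA, the microRNA-trimming exonuclease Nbr (rank 5549 in replicate 2), the nuclease Tudor-SN and blanks, a double-stranded RNA-binding protein.

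The piRNA genes, whose pathway silences transposons in the germ line, were bound in 6 of 20 cases (30%), against 33.4% of all genes. None of the 3 PIWI-type Argonaute genes, whose proteins carry the piRNAs, was bound, where AGO1 and AGO2 both were. With 33.4% of all genes bound, so few genes cannot show a difference between classes of Argonautes. The nearest IDR summit was 1988 bp from a start of piwi, 2606 bp from aub and 215043 bp from AGO3. No region lay within 250 bp of a start of piwi or AGO3 in any of the 5 lists. Whether regions could be called around AGO3 was not checked. In full, the lists of replicates 1, 2 and 3 reached 52%, 50.2% and 50.5% of all genes and 8 of 8 members, and the pooled list 52.2% and 8 of 8. For aub a region was listed at rank 9503 in replicate 1 and 16222 in replicate 3, and none in replicate 2. Of 17 other piRNA genes 6 were bound (35.3%), near the 33.4% of all genes, with 2, 7 and 6 of them in replicates 1, 2 and 3. The strongest were the helicase gene vas (180.1, rank 4108), zuc (175, rank 4286), whose product cuts piRNA precursors, and squ (161, rank 4858), each below loqs (183) in the IDR list. In single replicates the order varied. In replicates 1, 2 and 3 the signal was 37.6, 53.9 and 91.6 for vas, 48.6, 51.0 and 91.5 for squ and 52.6, 47.2 and 72.1 for zuc, against 56.5, 50.2 and 85.0 for loqs. Only zuc of these lay below loqs in all 3 replicates, and vas and squ were above it in replicates 2 and 3. The piRNA lists too were chosen with earlier results of these data known. The difference between these lists and the 8 members was not tested.

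**Figure D5:**
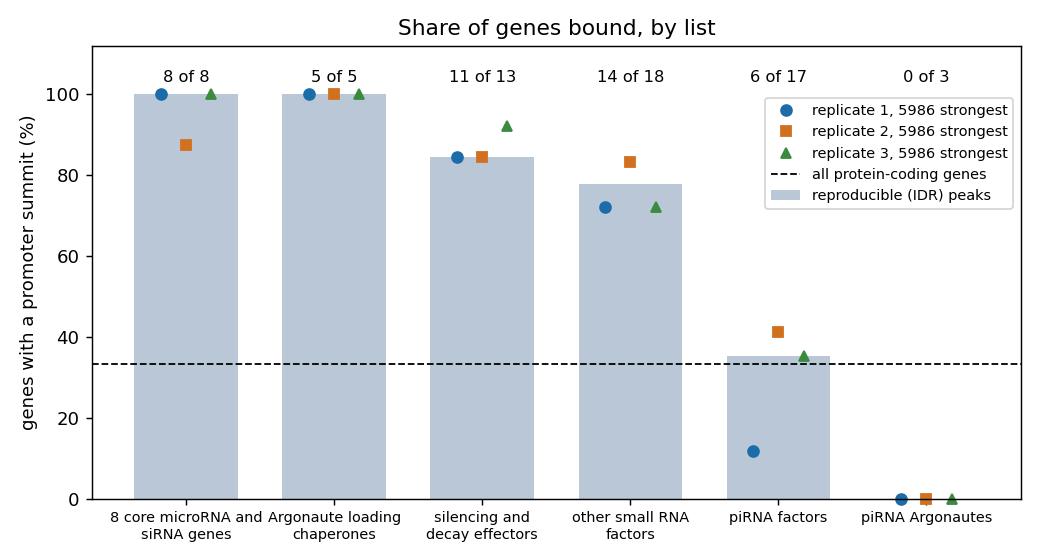
Share of genes in each list with a summit within 250 bp of a start site, in the IDR list (bars) and in the 5986 strongest regions of each replicate (symbols), with the share of all protein-coding genes (33.4%, dashed). The 8 core genes stand at 8 of 8 and the piRNA Argonautes at 0 of 3. Members and lists were chosen with earlier results of these data known.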

How the data were processed

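The deposited files are region lists in narrowPeak format on dm6, per the labels and per the submitters' file inventories, which name a control set: 1 list per replicate, 1 from the 3 libraries pooled (30000 regions each) and 1 thresholded by IDR (5986 peaks, the strongest of the pooled list). The dm3 lists were not used here. The aligner and the peak caller were not given in the sources used here. Values of signal, −log10 q-value and summit offset are the authors', as deposited. Summits sat at the centre (to 1 bp) in 70.3% of IDR peaks and in 97.3% to 98.8% of replicate regions. The precision of the summit positions was not measured. The lists give no read totals.

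Genes and start sites came from Ensembl 115, and sequence from RefSeq Release 6. All 8 members had the same coordinates in both. Bound genes were those with any start within 250 bp of a summit. Where several regions qualified, the strongest was used. Members and lists were chosen with earlier results of these data known. Named were all members, the 3 strongest bound genes of each list, the PIWI-type Argonautes, neighbours in the window and the 2 genes most alike. Ranbp21, gw and the unbound genes Ge-1, pcm, Hen1, Nbr, Tudor-SN and blanks were named after their values were seen. Symbols of 3 genes (DCP1, DCP2, Nbr) were respelled to match the annotation.

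Ratios between genes were taken within a replicate and tested by an exact two-sided sign-flip permutation over 3 replicates, which cannot go below p = 0.25. The labels call the 3 samples biological replicates. The calling of bound genes and the choice of the strongest region were tested on simulated summits. The permutation test and the motif search were not tested in this way. Python 3.11.15, numpy 2.4.6 and pandas 2.3.3 were used. Other settings were windows of 100, 500 and 1000 bp, other lists, start sites, summit positions and numbers of top regions, and each replicate left out.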

Additional observations from a re-analysis of the deposited data

How the results depend on the processing

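Of 102 values recomputed under other settings, 92 stayed within the limits set: the same direction for a ratio, 1 SD for a level and 1.5 times for a count. Leaving out 1 of 3 replicates cannot move the mean of a level by 1 SD, so those values could not fail. Wider windows left every level and ratio at its main value. The number 92 therefore includes values that were not a test of stability. A count within the limit of 1.5 times can still move. Peaks above the median signal held 20 of the 36 other pathway genes (20.9% of all genes), against 30 in the whole IDR list (33.4%). Windows of 100 and 1000 bp held 4 and 8 of 20 piRNA genes (23.6% and 40.8% of all genes), against 6 at 250 bp (33.4%). Limiting the IDR list to peaks above its median signal left 5 of 8 members bound (20.9% of all genes), without Dcr-1, Dcr-2 and loqs, and 0 of 20 piRNA genes. Giving each summit to its nearest start left 6 members bound, without Dcr-1 and drosha (28.2% of all genes), and 3 piRNA genes. The full pooled list held 11 piRNA genes (52.2% of all genes), and top regions shared by all 3 replicates held 2 (25.5% of all genes). Regions shared by the remaining replicates when any 1 was left out gave 7 to 8 members, without Dcr-1 wherever replicate 2 was kept, and 2 to 6 piRNA genes. The share of all genes there was 27.6% to 28.3%. The piRNA count was 2 without replicate 2 (28.3% of all genes) and 2 without replicate 3 (27.7% of all genes). The cause of these moves was not tested. With AGO1 taken at its most upstream start alone, an alternative added after seeing the data, the log2 ratio over AGO2 was -0.77 and that of the branches -0.49. With each replicate left out, the log2 ratio was 0.64 to 0.88 for AGO1 over AGO2, -0.42 to 0.13 for Dcr-1 over Dcr-2 and 0.17 to 0.50 for the branches. The sum of all regions within 250 bp of any start, which adds both bound AGO1 starts, gave 1.36 for AGO1 over AGO2, -0.08 for Dcr-1 over Dcr-2 and 0.64 for the branches. The ratio of ranks gave 3.01, -0.25 and 1.38 in that order. In both settings 3 of 3 replicates were positive for AGO1 over AGO2 and for the branches, where 2 of 3 were positive for the branches with the strongest regions. A window of 100 bp gave no AGO1 over AGO2 value, since AGO2 had no summit there in 2 replicates. No paired analysis was possible because the series holds 1 group of samples. The ratios compare genes within a replicate, not groups.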
